A study of Neurospora crassa with 24 samples.

Results

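Of the 8676 *Neurospora crassa* genes with usable levels on both media, 92 (1.06%) passed set limits for 1 pattern of opposite change as dormant conidia became germinating spores. Between 15 and 120 min after plating their transcripts became more abundant on maple sap medium (MSM) and less abundant on Bird medium (BM). They were picked for exactly that pattern. Levels were first expressed on each medium as log2 values less the median over the genes kept at that stage, and a gene became a member when its first step was at least 0.7 on MSM and at most -0.7 on BM. The first step is therefore a description of the choice and carries no test. The members were 92 of 9730 genes listed. Among the kept genes, 1175 (13.5%) passed the MSM condition and 916 (10.6%) passed the BM condition on the scale of the rule, and 161 genes did the opposite, moving down on MSM and up on BM by at least the same amounts.

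The 24 RNA libraries came from the mat A strain FGSC2489 of this filamentous ascomycete, whose macroconidia were spread on cellophane over agar and kept under constant white light. There were 8 groups of 3 biological replicates: MSM at 15, 120, 240 and 360 min (stages 1, 2, 3 and 4), and BM at the same 4 times. MSM is made from maple sap, a sucrose-rich fluid with very little nitrogen, and BM is a defined medium with glucose and ammonium. The conidia of both arms came from BM cultures of the same wild-type strain, and sampling was timed by how spores looked on BM. Because germination began earlier on MSM in the study, the medium and the pace of development cannot be told apart in any contrast below.

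A conidium is a resting cell that carries trehalose, glycogen, stored transcripts and a strong antioxidant defence. Germination breaks the reserves down, rebuilds ribosomes and mitochondria, and lays down a polar germ tube that later branches. Transcripts stored in the spore are lost early while those of growth accumulate, so a gene can appear at high level in the fresh spore and again in the growing germ tube. In bulk RNA a lower level may reflect fewer cells that hold a transcript or less of it per cell, and these cannot be told apart.

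The deposited value of a gene is its level relative to its own lowest stage on that medium, so the lowest stage is 1, and the 3 replicates of a stage are already combined into it with a 95% interval. Levels can be compared across stages of a gene on a medium, and not between genes or between media. Unless stated otherwise a change is the log2 ratio of consecutive stages less the median change of the 8676 genes, and its error is the SE derived from those intervals. A last step is called, and written as a rise or a fall, when its two-sided z test passed 0.01 after Bonferroni adjustment across the 8676 genes. The median gene itself moved by 0.03, -0.04 and 0.15 in the deposited log2 levels over the first, middle and last step on MSM, and by -0.37, 0.42 and -0.30 on BM. Read depth per library is not part of the values used here. As a check on the stage labels, 4 of 6 conidial marker genes (*con-6*, *con-8*, *con-10*, *con-13*, *eas* and *ccg-1*) ended below their stage 1 level on MSM and all 6 on BM, while 4 of 5 hyphal genes ended above stage 1 on MSM and 3 of 5 on BM. *con-13* is itself a member.

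In the first step the members' median change was 1.25 on MSM, with a range of 0.95 to 3.06, and -1.29 on BM, with a range of -3.22 to -0.87. Both 95% intervals excluded 0 for 76 of the 92 genes and lay wholly past the thresholds for 42. The interval reached 0 on MSM in 5 members and on BM in 16. At all 8 levels the SE was under 0.25 for 63 members. Genes lay close together on either side of the threshold: on the rule's scale *con-13* had 0.706 on MSM and -2.34 on BM, NCU06058 had 0.70 on MSM and -1.84 on BM, and *rhd* (NCU06031) had 0.70 on MSM and -1.27 on BM. Just outside were NCU09058 with 0.696 on MSM and -0.71 on BM, NCU05998 with 0.694 on MSM and -1.60 on BM, and NCU08771 with 0.691 on MSM and -1.21 on BM.

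**Figure D1:**
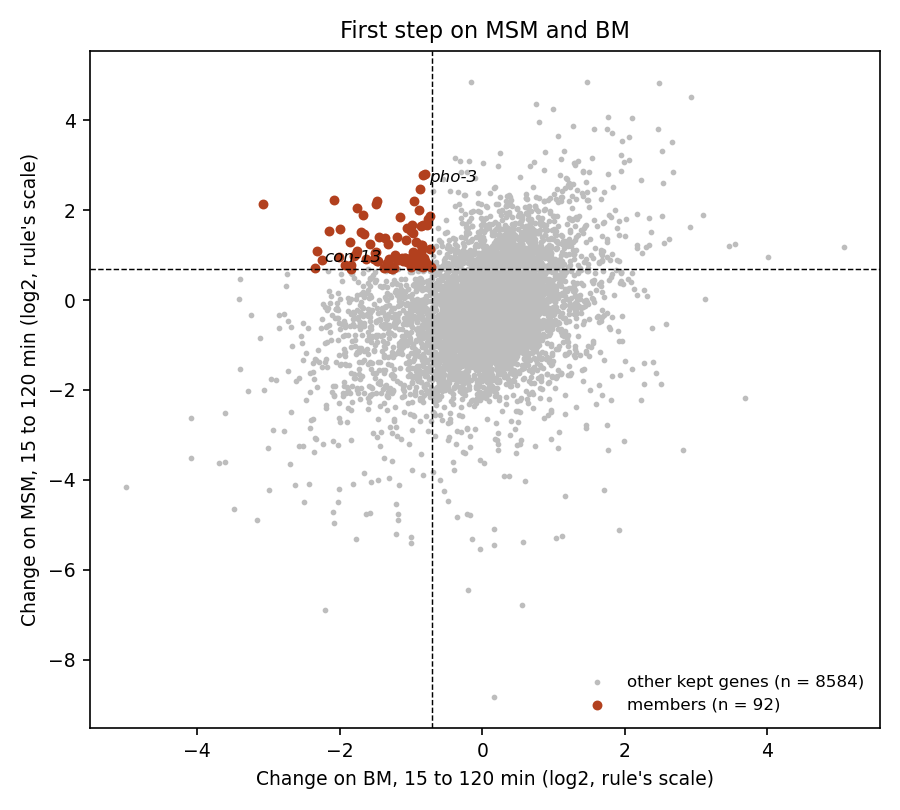
Change from 15 to 120 min on MSM (y axis) and on BM (x axis) for the 92 members (red) and the other 8584 kept genes (grey), in log2 on the scale of the rule. The dashed lines are the thresholds of 0.7 and -0.7 that chose the members, which fill the upper left corner. *pho-3* and *con-13* are labelled.

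A gene symbol in the RefSeq annotation of the NC12 assembly, the build to which the reads were aligned, was found for 14 members (15.2%), beside 12.7% of all kept genes. These 14 fall into enzymes of reserve carbohydrate and gluconeogenesis (*gsy-1*, *fbp-1*, *gpi-1*, *acu-9*), redox and protein folding (*sod-1*, *egt-1*, *erp38*), organelle biogenesis (*tob55*, *pex11*), vitamin and phosphate metabolism (*rib-3*, *pho-3*), development (*per-1*, *con-13*) and *rhd*. Their courses on both media are described below by role, with the levels of stages 1, 2, 3 and 4 always in that order.

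*gsy-1* (NCU06687, chromosome V, 4278032 to 4282081) encodes glycogen synthase, which lengthens the glucose chains of the fungal carbohydrate store. Its levels were 1, 4.40, 11.1 and 34.7 on MSM, against 3.19, 1, 9.09 and 16.7 on BM. On MSM the transcript was higher at each later stage, and on BM it fell first and then passed its starting level by 240 min. In the last step, which the rule did not use, *gsy-1* rose on both media, by 1.49 ± 0.014 on MSM and 1.17 ± 0.014 on BM (SE), and the difference of 0.32 ± 0.020 was called as well. Of the 5 kept genes in a list for glycogen and trehalose metabolism *gsy-1* is the only member. By at least 0.7, 2 of the 5 went up and 1 down on MSM in the first step (beside 19.7% and 18.5% of all kept genes), against 1 up and 4 down on BM (beside 7.48% and 13.3%). In the last step 4 of the 5 rose on MSM, beside 35.3% of all kept genes, and the other, *ccg-9*, was not called, at 0.29. On BM 2 of the 5 rose and 1 fell, beside 31.9% and 27.7%.

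*fbp-1* (NCU04797, chromosome VI, 854430 to 856333) encodes fructose-1,6-bisphosphatase, a committed enzyme of gluconeogenesis. It had levels of 1, 2.36, 2.76 and 6.61 on MSM, against 7.87, 1.37, 2.15 and 1 on BM. The transcript was highest at 360 min on MSM and in the 15 min spore on BM. It is 1 of 2 members called lower on BM in the last step, at -0.81 ± 0.13, and it rose on MSM by 1.11 ± 0.025. The MSM change exceeded the BM change by 1.92 ± 0.14, which was called.

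*acu-9* (NCU10007, chromosome I, 710761 to 713665) encodes malate synthase of the glyoxylate cycle, which lets cells grow on acetate or fatty acids. Levels were 1, 3.83, 2.87 and 2.80 on MSM, against 2.84, 1.09, 1 and 1.11 on BM. The MSM maximum was at 120 min, and on BM the level stayed near its minimum after 15 min. The last step ran the other way to that of *fbp-1*: it was -0.18 ± 0.0074 on MSM and 0.45 ± 0.031 on BM, both called. Of the 6 kept genes listed for gluconeogenesis and the glyoxylate cycle, *fbp-1* and *acu-9* are members. In the first step 4 of the 6 went up by at least 0.7 on MSM and 0 down, beside 19.7% and 18.5% of all kept genes. On BM 0 went up and 2 down, beside 7.48% and 13.3%. The 2 that went down are the members. The last step brought 1 rise and 5 falls on MSM, beside 35.3% and 34.8% of all kept genes. On BM it brought 3 rises and 3 falls, beside 31.9% and 27.7%.

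*gpi-1* (NCU07281, chromosome IV, 4532625 to 4534989) encodes glucose-6-phosphate isomerase, a reversible enzyme shared by glycolysis and gluconeogenesis. Its levels were 1, 2.10, 3.98 and 7.21 on MSM, against 5.44, 1, 2.67 and 3.81 on BM. After its fall on BM the transcript did not reach the level of the fresh spore again, with a net change of -0.22 ± 0.012 from 15 to 360 min, while on MSM the net change was 2.71 ± 0.023. It rose in the last step on both media, by 0.71 ± 0.013 on MSM and 0.81 ± 0.015 on BM. Only 7 of 21 symbols in a list for glycolysis and fermentation were found, and *gpi-1* is not among these genes. None of the 7 is a member. In the first step 6 of them went up by at least 0.7 on MSM and 5 on BM, beside 19.7% and 7.48% of all kept genes.

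A pair of unnamed members has an enzyme annotation in the study's tables for carbohydrate work. NCU01768, annotated as glucosidase I, which trims glucose from new N-glycans, had levels of 1, 5.66, 14.2 and 29.6 on MSM, against 6.04, 1, 2.66 and 4.06 on BM. NCU07064, annotated as L-galactonate dehydratase, had 1, 2.40, 1.63 and 1.46 on MSM, against 4.96, 1, 1.75 and 1.39 on BM. They parted after the shared first step. NCU01768 rose in the last step on MSM by 0.91 ± 0.0098 and on BM by 0.91 ± 0.017, and NCU07064 had -0.31 ± 0.075 on MSM and -0.04 ± 0.17 on BM, neither called.

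A group of 3 members serves redox work. *sod-1* (NCU02133, chromosome I, 1135057 to 1136630), the copper-zinc superoxide dismutase, had levels of 1, 3.21, 6.19 and 9.14 on MSM, against 3.29, 1, 3.23 and 5.52 on BM. *egt-1* (NCU04343, chromosome IV, 3707018 to 3711237), needed to make the thiol antioxidant ergothioneine, had 1, 2.88, 6.31 and 12.7 on MSM, against 4.29, 1, 3.56 and 4.06 on BM. NCU01219, annotated as a glutaredoxin, had 1, 2.01, 3.98 and 8.83 on MSM, against 2.36, 1, 2.44 and 4.61 on BM. All 3 were highest at 360 min on both media but for *egt-1*, whose BM maximum was at 15 min, and the BM minimum at 120 min is shared with 89 of the 92 members. A low BM level at 120 min is part of how members were chosen. Between 240 and 360 min *sod-1* rose by 0.42 ± 0.0069 on MSM and 1.07 ± 0.0096 on BM, *egt-1* by 0.86 ± 0.014 on MSM and 0.48 ± 0.032 on BM, and NCU01219 by 1.00 ± 0.0042 on MSM and 1.22 ± 0.0094 on BM. The difference between the media was called for each of them, being lower on MSM for *sod-1* (-0.65 ± 0.012) and NCU01219 (-0.22 ± 0.010) and higher on MSM for *egt-1* (0.38 ± 0.035).

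Most other genes of antioxidant defence did not share this course. Of 11 kept genes in a list for superoxide, peroxide and thiol defence, *sod-1* and *egt-1* are members, and they were the only 2 that went up by at least 0.7 on MSM in the first step. The list had 6 genes down by that much on MSM, against 7 down and 0 up on BM. Of all kept genes, 19.7% went up and 18.5% down by that much on MSM, and 7.48% and 13.3% on BM. Its median first step was -1.41 on MSM and -1.57 on BM. Among the genes that are not members, *gst-2*, *gst-1* and *cat-3* differed most between the media in the first step. They had -4.48, -4.25 and -1.41 on MSM, against -1.72, -2.65 and -0.08 on BM. Smaller changes were those of the mitochondrial *sod-2*, with -0.09 on MSM and 0.42 on BM, and of the catalase *cat-1*, an enzyme abundant in conidia, with 0.62 on MSM and -0.30 on BM. From 240 to 360 min 9 of the 11 rose and 2 fell on MSM, beside 35.3% and 34.8% of all kept genes. On BM 4 rose and 6 fell, beside 31.9% and 27.7%.

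*erp38* (NCU03739, chromosome V, 2256751 to 2258543) encodes an endoplasmic reticulum protein of the disulfide isomerase family, which helps secreted proteins fold. Its levels were 1, 3.44, 10.6 and 13.9 on MSM, against 2.80, 1, 2.46 and 2.65 on BM. Most of its course on MSM was complete by 240 min, with a smaller last step of 0.25 ± 0.0080 on MSM and 0.41 ± 0.015 on BM, both called.

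*tob55* (NCU05593, chromosome VI, 1391460 to 1393605) encodes the core of the machinery that inserts beta-barrel proteins into the mitochondrial outer membrane, and its first step was the largest of the named members when the smaller of its moves is taken (2.05 on MSM and -1.76 on BM on the rule's scale). It had levels of 1, 5.05, 6.10 and 5.06 on MSM, against 4.84, 1, 2.00 and 6.38 on BM. On MSM the transcript reached a plateau from 120 min, and on BM most of its return came between 240 and 360 min. The last step was -0.42 ± 0.012 on MSM and 1.97 ± 0.045 on BM, the largest rise of any member called on BM, and the difference was -2.38 ± 0.047. Of 30 kept genes of mitochondrial import and porin only *tob55* is a member. In the first step 3 of the 30 went up and 5 down by at least 0.7 on MSM, beside 19.7% and 18.5% of all kept genes. On BM 0 went up and 2 down, beside 7.48% and 13.3%. In the last step 5 rose and 25 fell on MSM, beside 35.3% and 34.8% of all kept genes. On BM 22 rose and 3 fell, beside 31.9% and 27.7%. On both media *tob55* moved in that step in the direction of most of its list.

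*pex11* (NCU04802, chromosome VI, 877350 to 878844) encodes a peroxisomal membrane protein that drives division of the organelle. Its levels were 1, 2.50, 3.78 and 4.19 on MSM, against 4.07, 1, 3.74 and 5.22 on BM. Its last step was 0.00 ± 0.011 on MSM, not called, and 0.78 ± 0.027 on BM, called, and the difference of -0.77 ± 0.029 was called. It is the only member among 20 kept genes of peroxisomes and fatty acid oxidation. Of these, 7 went up by at least 0.7 on MSM in the first step and 4 down on BM, beside 19.7% and 13.3% of all kept genes.

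*rib-3* (NCU01449, chromosome V, 4705718 to 4709289), annotated in the study as GTP cyclohydrolase II and dihydroxybutanone phosphate synthase, serves the start of riboflavin synthesis. It had levels of 1, 2.30, 11 and 14 on MSM, against 3.56, 1, 2.41 and 2.15 on BM. Its largest step on MSM was the middle one, at 2.30 ± 0.0085. Its last step was small and called on both media, at 0.19 ± 0.0037 on MSM and 0.14 ± 0.021 on BM, where the deposited levels themselves were lower at 360 min than at 240 min.

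*pho-3* (NCU08643, chromosome IV, 4248244 to 4250307) encodes a repressible acid phosphatase that frees phosphate outside the cell. Levels of 1, 6.79, 8.36 and 13.7 were listed on MSM, against 2.62, 1, 1.88 and 2.26 on BM. Its intervals are wide: the first step was 2.73 ± 0.42 on MSM and -1.02 ± 0.65 on BM, so the BM interval included 0, and the last step was called on neither medium, at 0.57 ± 0.14 on MSM and 0.56 ± 0.52 on BM. NCU05980, annotated as carboxypeptidase S1, had one of the steepest courses on MSM, with levels of 1, 8.51, 18.4 and 46.4, against 2.51, 1, 3.15 and 4.37 on BM. It rose in the last step on MSM by 1.18 ± 0.051 and had 0.77 ± 0.16 on BM, not called.

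The genes tied to development were measured with wide intervals. *per-1* (NCU03584, chromosome V, 1714456 to 1721951), a polyketide synthase of the dark pigment of fruiting bodies, had levels of 1, 2.11, 4.52 and 4.35 on MSM, against 2.46, 1, 6.65 and 2.18 on BM. Its first step was 1.05 ± 0.48 on MSM and -0.93 ± 0.86 on BM, and its last step was called on neither medium. *con-13* (NCU07324, chromosome IV, 4367319 to 4368460), a gene expressed during conidiation, had 4.82, 9.57, 1.02 and 1 on MSM, against 46.3, 6.38, 6.70 and 1 on BM. It stands apart from the other named members in ending far below its starting level on both media, with a net change of -2.41 ± 0.30 on MSM and -5.24 ± 0.89 on BM.

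*rhd* (NCU06031, chromosome VII, 2030147 to 2032152) had the smallest first step on MSM and the smallest first-step SE of any member on either medium. Its levels were 1, 1.98, 1.47 and 1.27 on MSM, against 3.46, 1, 1.42 and 3.13 on BM. The last step was -0.35 ± 0.0064 on MSM and 1.43 ± 0.0074 on BM, both called, and by 360 min the level was again near that of the fresh spore on each medium, with a net change of 0.21 ± 0.0074 on MSM and 0.15 ± 0.0048 on BM.

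**Figure D2:**
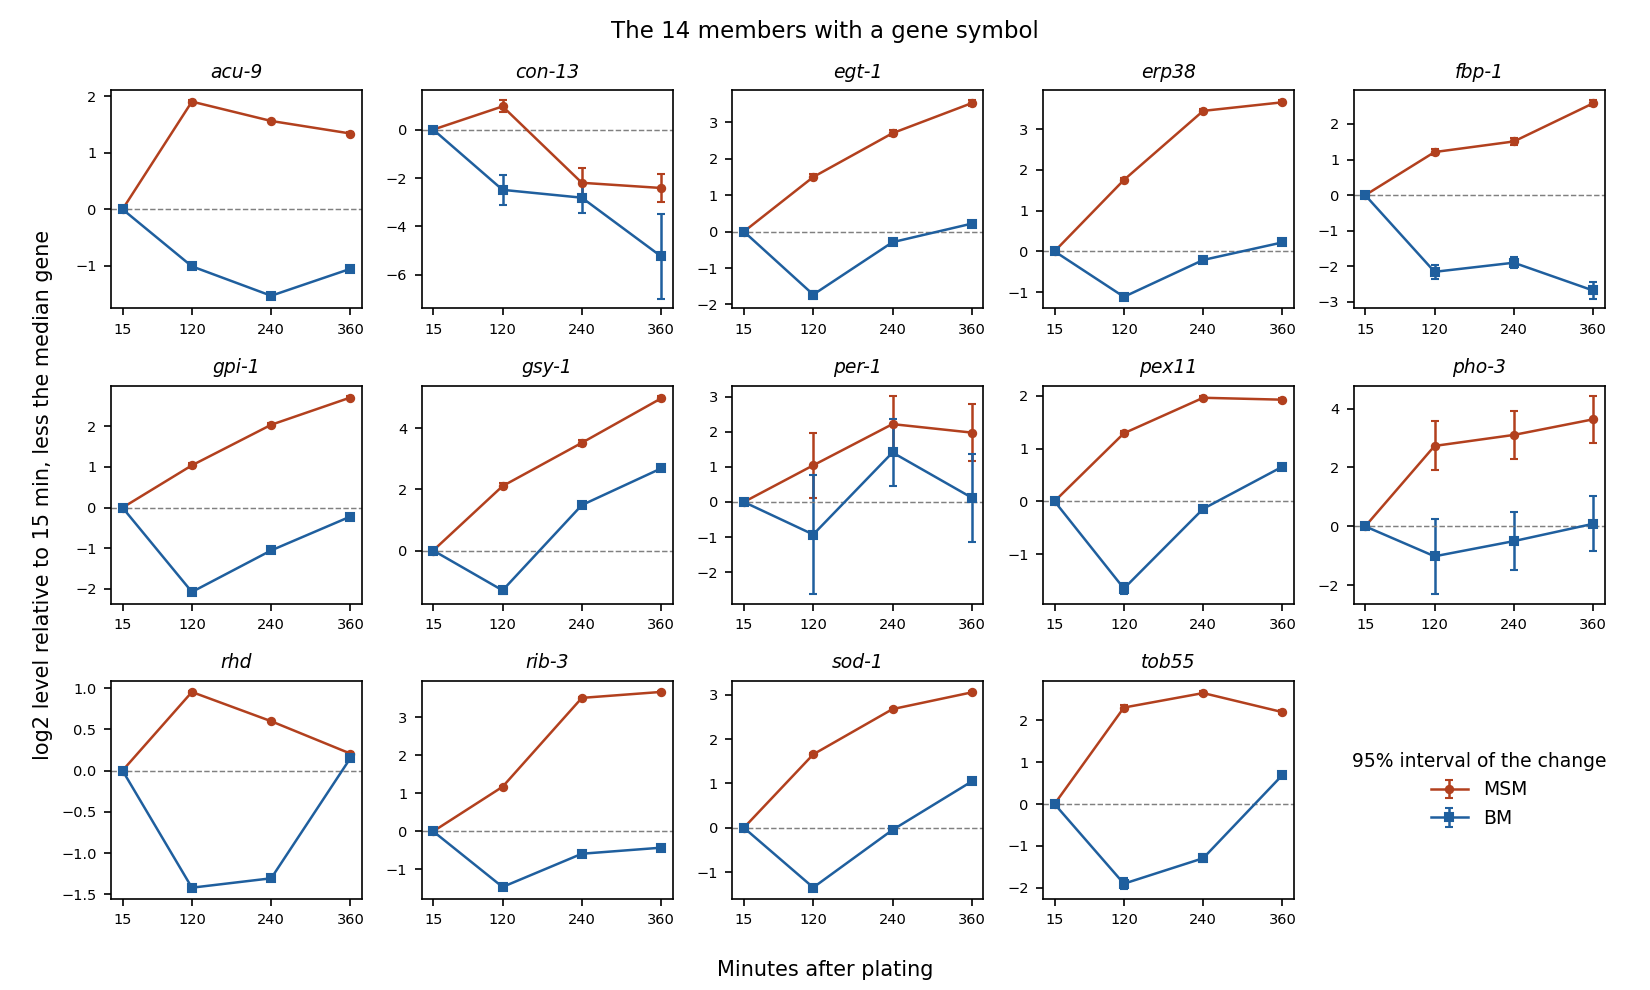
Courses of the 14 members with a gene symbol on MSM (red circles) and BM (blue squares). The x axis is minutes after plating, and the y axis is the log2 level relative to 15 min less the median gene, on a scale of its own in each panel, with 95% intervals of the change. Every gene parts upward on MSM and downward on BM at 120 min by the choice of members, and after it *gsy-1*, *sod-1*, *pex11* and *tob55* end above 15 min on BM while *fbp-1*, *acu-9* and *con-13* end below.

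The members were also ranked by the smaller of their moves in the first step, and *tob55* is among the first 10. The first, NCU08191 (chromosome III), had levels of 1, 5.39, 5.03 and 11.2 on MSM, against 12.1, 1, 4.18 and 6.95 on BM, and is imprecise on BM, where the first step was -3.22 ± 0.76. NCU00655, annotated as a zinc-binding dehydrogenase, had 1, 3.48, 8.11 and 27.9 on MSM, against 4.66, 1, 3.92 and 9.58 on BM. NCU05837 had 1, 5.38, 10.2 and 27.7 on MSM, against 4.04, 1, 7.43 and 10.1 on BM. These are courses that climb at each stage on MSM and from 120 min on BM, apart from a level of NCU08191 at 240 min on MSM that was close to that at 120 min. NCU07723 had 1, 3.39, 14.4 and 26.2 on MSM, against 4.50, 1, 2.36 and 3.81 on BM, and NCU02665 had 1, 5.59, 7.69 and 12.7 on MSM, against 3.99, 1, 2.61 and 3.10 on BM. NCU04960, NCU05909 and NCU04134 had a first step on BM with an SE of 1.2 each. Of the 10 genes, 7 rose and 1 fell on MSM in the last step, beside 35.3% and 34.8% of all kept genes, and on BM 6 rose, beside 31.9%, and 4 were not called.

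In the middle step, from 120 to 240 min, the members' median change was above that of the kept genes on both media. Stage 2 enters the rule, so these values are a description. On MSM, where the choice was of a high level at 120 min, the median was 0.56, with 41 of 92 members at least 0.7 higher and 9 that much lower, beside 13.6% and 12.4% of all kept genes. On BM the median was 1.21, with 74 members (80.4%) at least 0.7 higher and 0 lower, beside 17.6% and 18.2%. On both media 39 members were at least 0.7 higher, beside 6.36% of all kept genes. Values of the other genes with a first step like that of the members on 1 medium, groups that include the 92, give the scale: the 1175 genes picked on MSM alone had a median of 0.51 on MSM and 0.80 on BM, and the 916 picked on BM alone had 0.04 on MSM and 0.00 on BM.

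**Figure D3:**
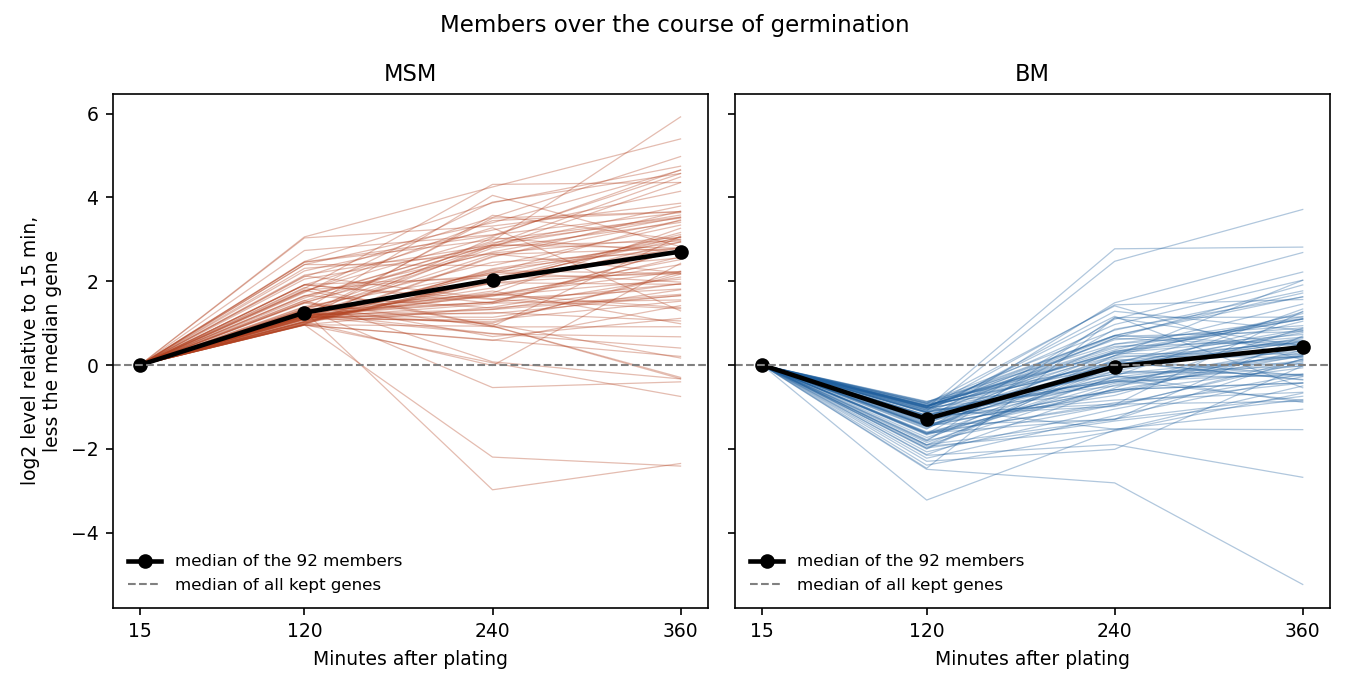
log2 level relative to 15 min, less the median gene, for each of the 92 members on MSM (left, red) and BM (right, blue) against minutes after plating. The black line is the members' median and the dashed line at 0 is the median of the kept genes. On MSM the median climbs to 2.71 at 360 min, and on BM it drops to -1.29 at 120 min and is at 0.43 at 360 min.

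The last step, from 240 to 360 min, shares no stage with the rule and is the step that was tested. On MSM 59 of the 92 members (64.1%) rose and 8 (8.7%) fell, beside 35.3% and 34.8% of all kept genes, and their median change was 0.58. On BM 45 (48.9%) rose and 2 (2.17%) fell, beside 31.9% and 27.7%, with a median of 0.53. In the deposited changes, without centring, 64 were called higher and 7 lower on MSM, beside 45.4% and 26.5%, and 36 higher and 8 lower on BM, beside 11.1% and 58.1%. The intervals behind the z test may not hold all the spread between replicates: with an added SD of 0.2 in log2 at every level, chosen after seeing the data, 8 members were called higher on MSM and none lower by the z test, beside 2.49% and 4.17% of all kept genes, and on BM 3 were called higher and none lower, beside 1.29% and 0.807%.

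Most members called on both media moved the same way on them. Members called higher on both numbered 37 (40.2%), beside 16.5% of all kept genes. None was called lower on both by the z test, beside 15.1%, and 2 members were lower on both at an unadjusted p below 0.05, beside 21.7% of all kept genes. Opposite calls were made for 2 members higher on MSM and lower on BM (beside 7.19%) and 5 lower on MSM and higher on BM (beside 10.5%). A further 20 were called higher and 3 lower on MSM only, beside 1008 and 790 of the 8676 kept genes. On BM only, 3 members were called higher and 0 lower, beside 418 and 471 kept genes. The other 22 members were called on neither medium, beside 1707 kept genes. Tested directly, the difference between the media (MSM minus BM) was called higher for 22 members (23.9%) and lower for 24 (26.1%), beside 27% and 34.7% of all kept genes (43 and 8 without centring, beside 55.8% and 15.8%). Which direction held more members thus turned with the centring.

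**Figure D4:**
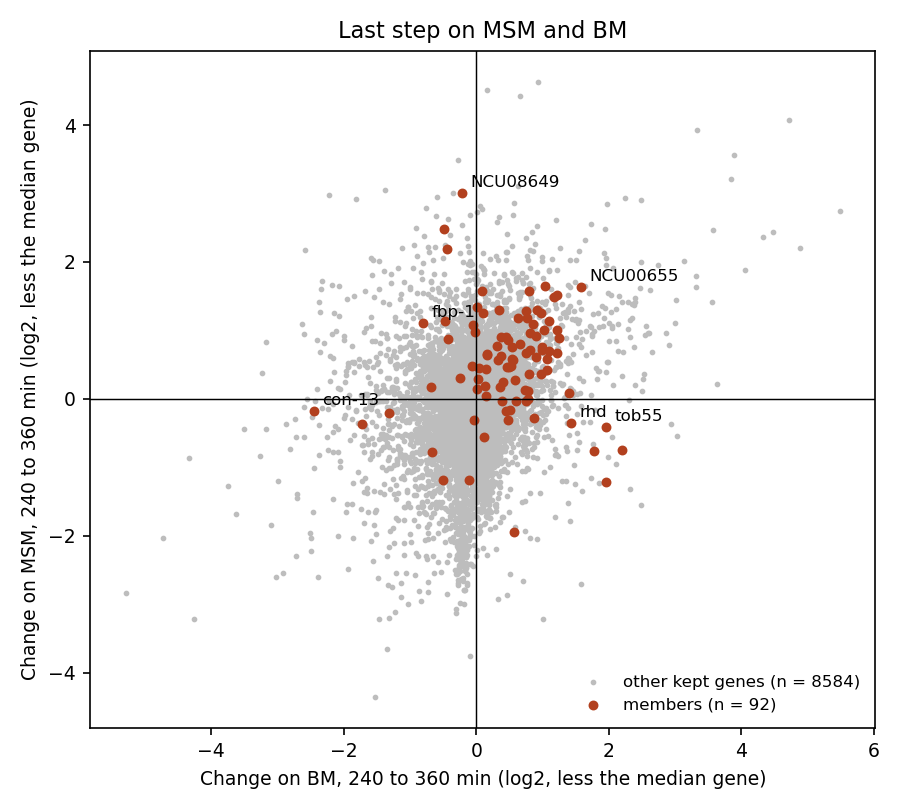
Change from 240 to 360 min on MSM (y axis) and on BM (x axis) for the 92 members (red) and the other 8584 kept genes (grey), in log2 less the median gene. Most members lie in the upper right, with medians of 0.58 on MSM and 0.53 on BM, and *tob55* and *rhd* lie at lower right and *fbp-1* and NCU08649 at upper left.

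The groups picked on 1 medium give the scale for the last step. The 1175 genes picked on MSM alone had medians of 0.23 on MSM and 0.24 on BM, with 53.6% called higher on MSM and 54% on BM. The 916 picked on BM alone had medians of 0.27 on MSM and 0.05 on BM, with 47.5% called higher on MSM and 29.6% on BM. The 161 genes of the opposite pattern had medians of -0.15 on MSM and -0.52 on BM, with 16.1% called higher on MSM and 3.11% on BM. The first 2 groups contain the members, and the differences between groups were not tested.

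Single genes led the last step on MSM by large amounts. NCU08649 (chromosome IV) rose by 3.00 ± 0.13 on MSM, with levels of 1, 3.09, 7.53 and 66.9, against 3.00, 1, 4.75 and 3.34 on BM, where its last step of -0.21 ± 0.37 was not called. NCU00128, annotated as a subunit of the splicing coactivator SRm160/300, rose by 2.19 ± 0.15 on MSM and had -0.45 ± 0.28 on BM, not called. The differences between the media, 3.22 ± 0.39 for NCU08649 and 2.63 ± 0.31 for NCU00128, are the largest called among the members. NCU08676 and NCU00655 rose on both media, by 1.64 ± 0.013 and 1.63 ± 0.019 on MSM and by 1.03 ± 0.020 and 1.58 ± 0.052 on BM. NCU00936, annotated as an aldehyde dehydrogenase, rose by 1.58 ± 0.020 on MSM and 0.79 ± 0.038 on BM, with levels of 1, 4.23, 6.81 and 22.5 on MSM, against 2.43, 1, 3.00 and 4.22 on BM.

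The 8 members that fell on MSM in the last step did so by less. NCU09773 was lowest at -1.19 ± 0.020 on MSM, with levels of 1, 2.54, 16.1 and 7.81, against 2.82, 1, 2.23 and 1.28 on BM. NCU04446 had -0.77 ± 0.12 on MSM and -0.66 ± 0.16 on BM, and NCU06809 had -0.55 ± 0.035 on MSM and 0.11 ± 0.075 on BM, with neither BM value called. These transcripts peaked on MSM at 120 or 240 min. On BM the rises were led by *tob55*, NCU00655 and *rhd*, followed by NCU09251 at 1.24 ± 0.021 and NCU06587 at 1.22 ± 0.067, and the falls were *fbp-1* and NCU00078, an uncharacterised gene, at -0.25 ± 0.027. NCU03556 rose on BM by 0.75 ± 0.025 and had -0.04 ± 0.0084 on MSM, not called. Its difference between the media, -0.79 ± 0.026, was called.

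Over the whole course, from 15 to 360 min, the members ended high on MSM and near their starting point on BM. The first step is part of this net change, so it is given without a test. The median net change was 2.71 on MSM and 0.43 on BM. On MSM 85 members ended above stage 1 (beside 50% of all kept genes), 81 of them by at least 0.7 (beside 32.2%), 3 ended at least 0.7 below (beside 32.3%), and 55 went up in both later steps as well as in the first. On BM 64 ended above stage 1 (beside 50%), 33 of them by at least 0.7 (beside 25.7%), and 9 ended at least 0.7 below (beside 26.5%). The members' median on BM was -0.04 relative to stage 1 at 240 min, and 42 members were back above stage 1 by then (beside 50%). At 360 min 26 first passed it, and 24 were below it at both times. A further group of 4, counted among the 42, was above at 240 min and not at 360 min. After 120 min 73 members went up in both later steps on BM. The choice of a low level at 120 min on BM favours a rise from it. For the 73, for the 55 on MSM, and for the 26 and 24 on BM, no share of all kept genes was computed.

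Across the genome the members lay on all 7 chromosomes. Chromosome IV held 19 (20.7%, beside 15.1% of the kept genes), chromosome I 18 (19.6%, beside 25.1%), chromosome VI 15 (16.3%, beside 9.88%), chromosome V 13, chromosome III 10, chromosome VII 9 and chromosome II 8. No test was made of these shares. In 4 cases a pair of members are immediate neighbours in NC12: NCU09532 and NCU09533 on chromosome V (4493702 to 4498837), NCU04133 and NCU04134 on chromosome V (4953442 to 4959929), NCU05157 and NCU05156 on chromosome VI (3542966 to 3547617) and NCU05837 and NCU05838 on chromosome VII (3997660 to 4011219). Neighbours share the direction of their first step by choice, and did not always share a call in the last step. No difference between neighbours was tested, and NCU04134 is imprecise, with a first step of -2.30 ± 1.22 on BM. NCU04133 rose in the last step on MSM by 1.58 ± 0.018 and had 0.09 ± 0.027 on BM, while NCU04134 had -1.22 ± 0.59 on MSM and 1.97 ± 0.91 on BM, and of these only the rise of NCU04133 was called. NCU05837 and NCU05838 both rose on MSM, by 1.29 ± 0.020 and 1.34 ± 0.033, and on BM NCU05837 rose by 0.74 ± 0.022 and NCU05838 had 0.01 ± 0.053, not called.

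Of 20 lists of genes with known roles, 13 held 0 members, where 1.06% of all kept genes are members, so that a list of this size holding none is no result about it. In the first step 28 of 29 kept proteasome genes went up by at least 0.7 on MSM and 0 went down on BM, beside 19.7% and 13.3% of all kept genes. Their median was 1.53 on MSM and 0.24 on BM. Of the 14 vacuolar ATPase genes 8 went up on MSM and 0 down on BM by that amount, with a median of 1.21 on MSM and -0.38 on BM. The *vma-2* gene, for one, had 1.33 ± 0.020 on MSM and -0.60 ± 0.023 on BM, short of the limit on BM. Lists for the respiratory chain, cell wall, cell fusion, chromatin, light and carotenoid genes and MAPK cascades also held 0 members. The light list does not cover all light-responsive genes. Of 12 members in the part of the study's annotation that was read, 3 are marked as late light response (NCU00111, NCU00132 and NCU01768). This stands beside 27 of 1645 kept genes in that part. Early light response is marked for 0 of the 12, beside 30 kept genes. These shares were not tested. Conidiation and surface genes had 1 (*con-13*) of 18, and sulfur and phosphate acquisition had 1 (*pho-3*) of 14, where the phosphate permease genes *pho-4* and *pho-5* went up on both media in the first step, by 2.25 and 2.45 on MSM and 0.72 each on BM.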

How the data were processed

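RNA-seq reads of 24 libraries were trimmed, aligned with TopHat2 2.0.12 to the OR74A v12 genome and tallied with HTSeq 0.6.1p1 by the authors, as the study and its processing notes state. The deposited values are ratios: the authors combined the 3 replicates of each stage with LOX and give, for each gene and medium, the level relative to the gene's lowest stage with distances to the 95% bounds. Values per library, read counts and depth were not analysed here, so no spread between single replicates can be shown. Columns were assigned to stages by the number in their names.

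Genes whose 4 levels and lower bounds were all above 0 were kept: 8855 on MSM, 8773 on BM and 8676 on both. The SE of a log2 level was the width of its log2 interval divided by that of a standard normal 95% interval. Stages were treated as independent. Changes were centred on the median change of the 8676 genes, except in the rule, whose scale leaves the median gene at -0.25 on MSM and 0.15 on BM in the first step. The last step was tested by a two-sided z test with Bonferroni adjustment at 0.01. Whether the deposited intervals hold all the spread between replicates was not tested. Named are every member with a symbol or a gene function in the study, the 10 with the largest smaller move, 3 genes each side of the threshold, the 5 largest called changes each way in each last-step comparison, members next to each other, and listed genes.

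The members and gene lists were chosen with earlier results of these data known. Symbols come from RefSeq, which matched all 92 members. Listed symbols that it did not match were left out, so a list can lack genes of its role. The study's annotation table was read in part. No sequences are shown. Computations used SciPy 1.17.1, pandas 2.3.3 and numpy 2.4.6 under Python 3.11.15, and figures matplotlib 3.10.9. Alternatives were another adjustment, a fold limit, other centring, other thresholds, wider errors and a limit on SE.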

Additional observations from a re-analysis of the deposited data

Results flagged for a closer look

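For 7 members the last step went in called and opposite directions on MSM and BM, and the difference itself was called by the two-sided z test with Bonferroni adjustment. The change on MSM minus the change on BM was 1.92 ± 0.14 (SE) for *fbp-1* and 0.55 ± 0.030 for NCU00078, which rose on MSM and fell on BM. It was -2.38 ± 0.047 for *tob55*, -1.79 ± 0.0098 for *rhd*, -0.80 ± 0.015 for NCU09223, -0.68 ± 0.032 for NCU09646 and -0.64 ± 0.032 for *acu-9*, which fell on MSM and rose on BM. NCU09223 had levels of 1, 2.09, 7.96 and 7.11 on MSM, against 5.11, 1, 2.06 and 2.35 on BM, and NCU09646 had 1, 2.23, 2.32 and 2.29 on MSM, against 3.98, 1, 1.66 and 1.93 on BM. These directions are relative to the median gene. In deposited levels on MSM, NCU09646 went only from 2.32 to 2.29 in the last step and *acu-9* from 2.87 to 2.80. With an SD of 0.2 in log2 added to every level, 0 members were called lower on MSM or on BM. No opposite calls remained there, and the difference was called higher for 2 members and lower for 1.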

How the results depend on the processing

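No paired analysis was possible because the deposited levels combine the 3 replicates of a stage, and for the same reason no replicate could be left out. Of 84 values computed, 48 moved. Counts cannot change sign, and the balance of the difference between the media turned: 22 higher and 24 lower in the main setting, 43 and 8 as deposited, 35 and 33 with Benjamini-Hochberg adjustment, and 35 and 31 at a threshold of 0.5. In this paragraph each group of counts gives the last step on MSM, the last step on BM and the difference MSM less BM. With Benjamini-Hochberg adjustment 14 members were called lower on MSM, 7 lower on BM and 35 higher in the difference, beside 42.1%, 39% and 37.5% of all kept genes. With a change of at least 2-fold 23 members were called higher and 1 lower on MSM, 12 higher and 0 lower on BM, and 8 higher and 2 lower in the difference, beside 5.8%, 8.17%, 2.48%, 2.36%, 5.89% and 8.36% of all kept genes. With each SE multiplied by 3, 0 members were lower on BM (beside 12.6% of all kept genes), and 8 were higher and 10 lower in the difference (beside 11.5% and 19.9%). With an SD of 0.2 added, an alternative chosen after seeing the data, they were 8 higher and 0 lower on MSM, 3 higher and 0 lower on BM, and 2 higher and 1 lower in the difference (beside 0.899% and 1.23%). With changes as deposited, the rule picked 310 genes. For the 92 the medians were then 0.73 on MSM and 0.23 on BM in the last step and 1.63 on BM in the middle step, with 8 lower on BM, where 58.1% of all kept genes were lower, and 43 higher and 8 lower in the difference. Centring the last step on stage medians, also added after seeing the data, left 0 lower on BM, beside 11.3% of all kept genes.

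The number of members depends on the threshold. At 0.5 it was 155, with 95 higher and 15 lower on MSM, 71 higher and 7 lower on BM, 35 higher in the difference and a median middle step of 0.44 on MSM. At 1 it was 25, with 14 higher and 2 lower on MSM, 12 higher and 0 lower on BM, 4 higher and 6 lower in the difference, a median last step of 0.75 on BM and a median middle step of 0.68 on MSM. Picked relative to the median gene, a choice also added after seeing the data, there were 159, with 96 higher and 19 lower on MSM, 75 higher and 9 lower on BM and 36 higher in the difference. For all 3 choices the shares of all kept genes were those of the main setting. They were 35.3% higher and 34.8% lower on MSM, 31.9% and 27.7% on BM, and 27% and 34.7% in the difference. The 36 other values, among them all those with SE limited to under 0.25, stayed within 1.5 times the main count or close to the main median. The limit for a median was the half-width of a 95% interval at the members' median SE. The deposited levels carry no read depth, and their intervals limit the precision.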
